A study of Homo sapiens with 18 samples.

Results

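The 10 genes of ISG15 conjugation and of interferon-induced ADP-ribosylation were followed by RNA sequencing across 3 human multiple myeloma cell lines. The genes were ISG15, USP18, UBA7, UBE2L6, HERC5, HERC6, PARP9, DTX3L, PARP12 and PARP14. They were taken by symbol from the deposited count table, where 10 of 28395 genes matched. The lines were H929, MM1S and OPM2. IKZF1 (Ikaros) had been knocked out with an inducible CRISPR-Cas9 system in each line, and the controls carried an empty vector. OPM2 also had an inducible knockout of IKZF3 (Aiolos), cells given lenalidomide at 10 µM, and untreated cells. Lenalidomide directs both proteins to degradation through the ligase substrate receptor cereblon. The protocol, given alike for all samples, names doxycycline at 1 µg/mL to switch on the guide RNA, or lenalidomide, and 72 h of culture before live cells were sorted. The sample descriptions state doxycycline for the 3 empty vector groups only, and the untreated cells have no time or drug of their own recorded. Each of the 9 groups had 2 libraries. Nothing in the labels says that these came from separate cultures, so p-values measure only the spread between these libraries. Knockout libraries are called a and b. The labels do not say if these come from different clones or different guides. The count column headers give the 2 libraries of OPM2 IKZF1 knockout different tags, while each pair of the other knockouts shares a tag and differs in the final number, and no label says what the tags mean.

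ISG15 is a ubiquitin-like protein that interferon induces and that is attached to other proteins through an enzyme chain of its own. UBA7 activates it, UBE2L6 carries it, the ligase HERC5 attaches it in human cells, and USP18 removes it. USP18 also binds the type I interferon receptor subunit IFNAR2 and damps its signal. HERC6 is the main ISG15 ligase in mouse. PARP9 and the ubiquitin ligase DTX3L form a complex, PARP14 and PARP12 transfer mono-ADP-ribose to proteins, and all of them are known as interferon-induced genes.

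Promoter windows show what several of the genes share in sequence. RefSeq windows of 300 bases around a transcript start (build GRCh38.p14) were matched by symbol for 8 of the 10 genes, all but USP18 and UBA7, in 10 windows. The motif GAAA, then any 2 bases, then GAAA, the core of the interferon-stimulated response element, was searched on both strands. It was present in 6 of these 10 windows, against 3.57% of all 35116 windows. The 30 bases around it are printed below because they lie next to the starts of the genes that the results turn on. Each is written 5′ to 3′ on its gene's own strand with the motif in capitals, which reads as TTTC, 2 bases and TTTC where the match is on the other strand.
ISG15: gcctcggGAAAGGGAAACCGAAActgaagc
HERC5: attacagTTTCCTTTTCCTTTTCgattccg
PARP9: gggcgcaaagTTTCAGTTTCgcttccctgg
DTX3L: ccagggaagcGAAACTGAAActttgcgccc
PARP12: ccggggccgcTTTCGGTTTCgtttcccgcc
PARP14: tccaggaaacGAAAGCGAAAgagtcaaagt
The ISG15 stretch is chr1:1013377-1013406 on the plus strand and holds 2 overlapping matches, and the HERC5 stretch, chr4:88456987-88457016 on the plus strand, also holds 2 overlapping ones. The PARP9 and DTX3L stretches are the same bases, chr3:122564322-122564351, read on the minus and the plus strand: the 2 genes start head to head and share 1 match. That match begins at position -41 from a PARP9 start and at position -6 from the DTX3L start. The PARP12 stretch is chr7:140062942-140062971 on the minus strand, and the PARP14 stretch is chr3:122680800-122680829 on the plus strand, with its match at position -29. All 30 bases of the PARP9, DTX3L, PARP12 and PARP14 stretches lie inside exons of the GENCODE annotation, whereas those of ISG15 and HERC5 lie outside them. No match was found in the windows of HERC6 or UBE2L6, nor in a second PARP9 window. TTCNNNGAA, the core of the gamma-activated site, was found in 1 of the 10 windows (PARP14) against 7.66% of all windows. TGGGAA, a core bound by Ikaros proteins, was found in 0 of 10, against 24% of all windows. Such matches are descriptions of letters and do not show binding.

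Libraries held 11.8 to 24.19 M counts, and levels are given as CPM, counts scaled to each library's effective size. Plasma cell markers such as SDC1 and XBP1 were high in every group, with SDC1 at 408 to 1965 CPM. IKZF1 transcripts were not lower in the knockouts: they stood at 156 ± 45.1 CPM against 124 ± 5.5 CPM in empty vector cells in H929, 322.5 ± 14.3 against 182 ± 4.43 CPM in MM1S and 219 ± 8.63 against 141 ± 66.3 CPM in OPM2 (SD, n = 2 each). IKZF3 stood at 68.0 ± 1.92 CPM in OPM2 IKZF3 knockout and 47.2 ± 4.48 CPM in empty vector (SD, n = 2 each), so transcript levels do not check the labels. The 2 OPM2 empty vector libraries were unlike each other, with 1134 genes more than 2-fold apart, against 23 to 419 in the other groups. T and NK cell markers summed to 30.4 and 34.3 CPM in H929 knockout and 44.9 and 42.5 CPM in H929 empty vector, and to at most 4.75 CPM elsewhere. The B cell gene MS4A1 had 0 counts in every group. RNA was taken from whole populations, so a change in the number of responding cells and a change in RNA per cell cannot be told apart.

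In H929, all 10 genes rose after loss of IKZF1, by 5.62-fold (UBA7) to 103-fold (USP18). A gene is called here when edgeR's quasi-likelihood test gives a Benjamini-Hochberg adjusted p below 0.05 over all 14571 genes tested, and 5.92% of these were called higher in this comparison. The median log2 fold change was 4.96 over the 10 genes and -0.03 over all genes tested. The modifier itself, ISG15 (Entrez 9636, chromosome 1, 1013497 to 1014540, GRCh38.p14), stood at 2694 and 1205 CPM in the knockout libraries, against 31.1 and 34.4 CPM in empty vector. That is a log2 fold change of 5.90 ± 0.41 (SE; adjusted p = 2.97e-07 in edgeR). USP18 (Entrez 11274, chromosome 22, 18150170 to 18177397), the ISG15 protease, stood at 46.9 and 20.9 CPM in the knockout libraries, against 0.340 and 0.304 CPM in empty vector, a change of 6.69 ± 0.49 (adjusted p = 4.11e-07 in edgeR). For both genes each knockout library lay far above each control library. Within H929, USP18 and HERC6 passed the filter on low counts through the knockout libraries only.

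The enzymes of the chain had smaller fold changes than ISG15 and USP18. The E2 enzyme UBE2L6 (Entrez 9246, chromosome 11, 57551662 to 57567935) stood at 451 and 262 CPM in knockout, against 52.4 and 60.6 CPM in empty vector (log2 fold change 2.66; adjusted p = 1.4e-05 in edgeR). The E1 enzyme UBA7 (Entrez 7318, chromosome 3, 49805209 to 49813953) stood at 29.1 and 17.97 CPM against 4.47 and 3.90 CPM (2.49; adjusted p = 2.41e-05 in edgeR). The ligase HERC5 (Entrez 51191, chromosome 4, 88457119 to 88506163) stood at 657 and 255 CPM in knockout, against 40.5 and 42.4 CPM in empty vector, a change of 3.46 (adjusted p = 3e-05 in edgeR). No group pair overlapped for these enzymes. HERC6 (Entrez 55008, chromosome 4, 88378852 to 88443097) was far lower, at 4.60 and 0.848 CPM against 0.227 and 0.101 CPM, or 70 against 6 counts. Its change of 4.02 ± 0.89 (adjusted p = 0.00959 in edgeR) was no longer called in 4 of the 12 alternatives. Among these were the fits without knockout library a (2.35) and without either empty vector library.

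The ADP-ribosylation genes rose together with the conjugation genes. PARP9 (Entrez 83666, chromosome 3, 122527924 to 122564784) stood at 129 and 61.0 CPM in knockout, against 0.849 and 1.17 CPM in empty vector, or 6.54 ± 0.41 as log2 fold change (adjusted p = 1e-07 in edgeR). Its partner DTX3L (Entrez 151636, chromosome 3, 122564338 to 122575203) stood at 139 and 70.0 CPM against 1.81 and 1.62 CPM, a change of 5.93 ± 0.30 (adjusted p = 1.02e-08 in edgeR). PARP14 (Entrez 54625, chromosome 3, 122680839 to 122730840) stood at 440 and 221 CPM against 5.10 and 4.36 CPM, a change of 6.13 ± 0.34 (adjusted p = 2.77e-08 in edgeR). These 3 changes exceeded that of PARP12 (Entrez 64761, chromosome 7, 140023749 to 140062951), which stood at 40.2 and 20.1 CPM in knockout, against 4.93 and 4.92 CPM in empty vector (2.61; adjusted p = 7.92e-05 in edgeR). PARP9 and DTX3L overlap by 447 bases, and the labels do not state if counting used strand, so the split of reads in that stretch is uncertain.

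Knockout library a was the higher of the pair for every one of the 10 genes in H929. Its level was 1.62 (UBA7) to 2.57 (HERC5) times that of library b for 9 of them and 5.43 times for HERC6. IFNB1, the gene of interferon beta, had 13 counts over the H929 knockout libraries (0.780 and 0.231 CPM) and 0 counts in each of the other 8 groups. The 7 interferon genes listed together summed to 2.50 and 0.540 CPM in H929 knockout libraries a and b, against 0.227 and 0.304 CPM in H929 empty vector. Their part in the result was not tested.

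**Figure D1:**
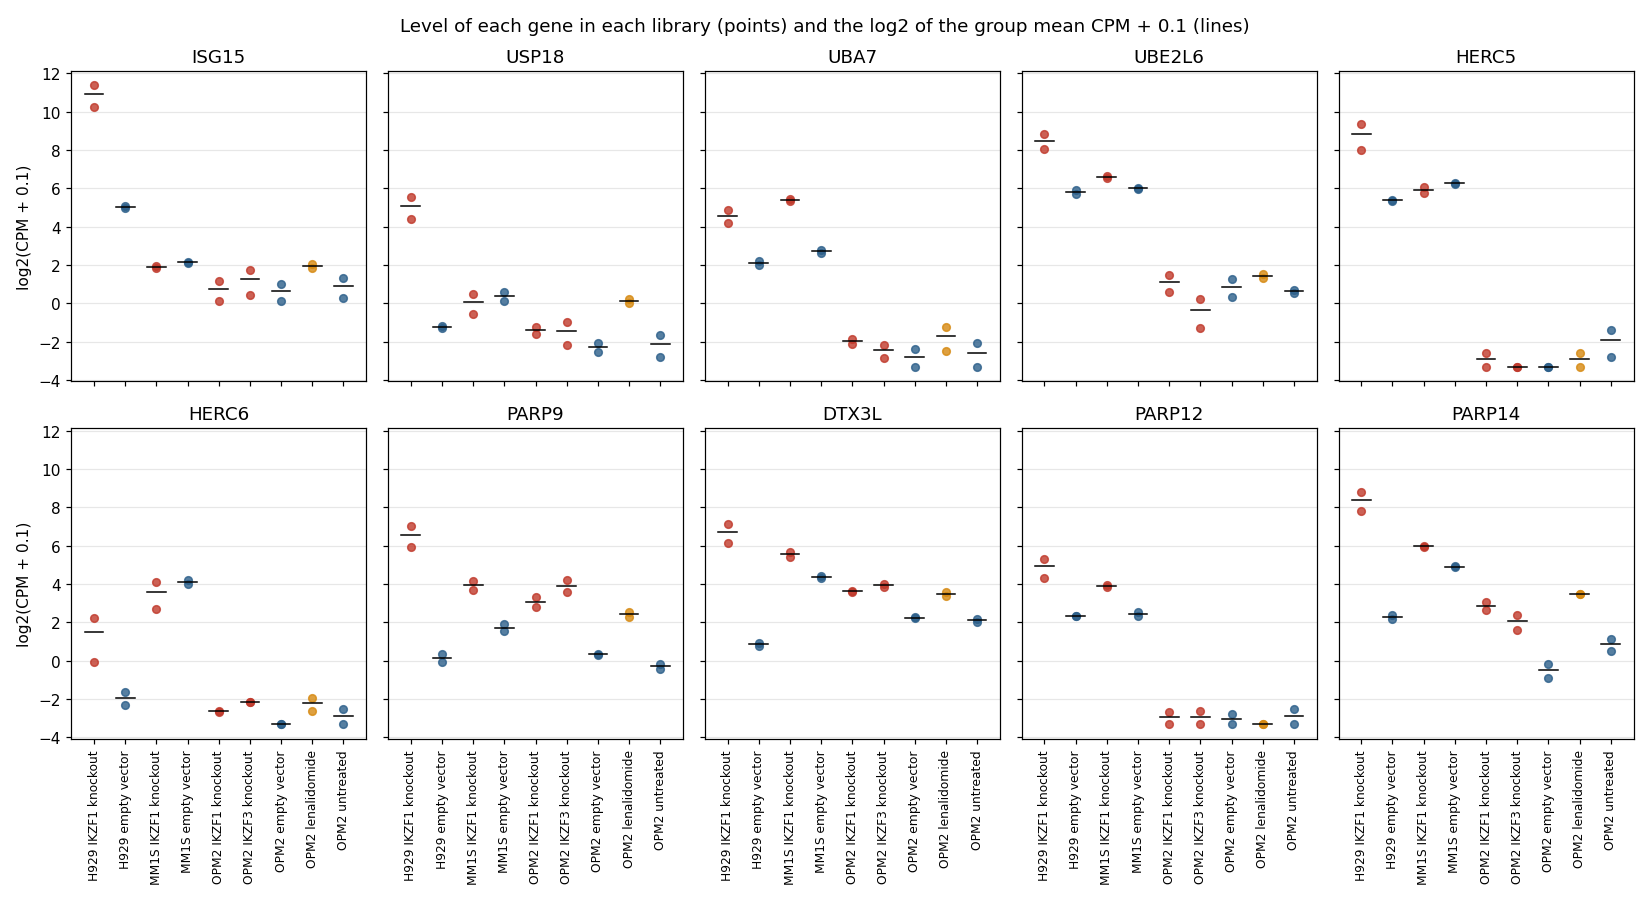
Level of each of the 10 genes as log2(CPM + 0.1) in each library (points), with the log2 of the group mean CPM + 0.1 (lines). Red marks knockouts, orange lenalidomide and blue the controls. All 10 genes sit higher in both H929 knockout libraries than in H929 empty vector, and UBA7, HERC5, HERC6 and PARP12 lie at or near 0 counts in every OPM2 group.

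In MM1S, loss of IKZF1 raised UBA7, PARP9, DTX3L, PARP12 and PARP14, and left ISG15, USP18, UBE2L6, HERC5 and HERC6 uncalled. These 5 of 10 compare with 15.6% of all genes called higher. UBA7 stood at 40.7 and 42.7 CPM in knockout, against 6.17 and 6.79 CPM in empty vector, or 2.69 ± 0.27 as log2 fold change (adjusted p = 4.37e-06 in edgeR). Its knockout level here was above that in H929 knockout. PARP9 stood at 18 and 12.9 CPM against 2.82 and 3.63 CPM (2.27; adjusted p = 0.00027 in edgeR), and DTX3L at 51.5 and 41.8 CPM against 20.98 and 20.1 CPM (1.18; adjusted p = 0.00148 in edgeR). PARP12 stood at 14.3 and 15.5 CPM in knockout, against 4.94 and 5.74 CPM in empty vector (1.48; adjusted p = 0.00297 in edgeR). PARP14 stood at 64.2 and 60.5 CPM against 29.7 and 30.5 CPM (1.05; adjusted p = 0.00925 in edgeR), a call lost without empty vector replicate 1 or 2 (adjusted p = 0.0688 and 0.0613 in edgeR) or without knockout library a (0.0548 in edgeR). Both knockout libraries lay above both controls for each of these 5 genes.

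The modifier and its ligase were not called in MM1S. ISG15 stood at 3.46 and 3.81 CPM in knockout, against 4.41 and 4.22 CPM in empty vector, a log2 fold change of -0.25 (95% interval -1.29 to 0.79; adjusted p = 0.757 in edgeR). HERC5 stood at 66.7 and 53.3 CPM against 78.1 and 74.7 CPM (-0.35; adjusted p = 0.475 in edgeR), and HERC6 at 17.3 and 6.46 CPM against 16.04 and 18.3 CPM (-0.52; adjusted p = 0.44 in edgeR). The HERC6 groups overlapped, and its 2 knockout libraries differed by 2.68 times. UBE2L6 stood at 100 and 93.5 CPM in knockout, against 64.2 and 63.6 CPM in empty vector, a change of 0.60 (95% interval 0.04 to 1.16; adjusted p = 0.104 in edgeR) although the groups did not overlap. UBE2L6 was called higher when only the compared libraries were fitted (adjusted p = 1.88e-05 in edgeR) or without the filter on low counts (0.00324 in edgeR), and HERC5 was called lower in the fit of the compared libraries (-0.35; adjusted p = 0.00754 in edgeR). USP18 had 26 counts in knockout and 39 in empty vector, a change of -0.33 (adjusted p = 0.717 in edgeR). USP41, a near-identical copy of USP18, had 57 counts against 2 in the same libraries (4.93 ± 0.77; adjusted p = 0.00057 in edgeR), and 17 against 0 in H929, so the division of reads between these 2 genes is uncertain. CD14, a myeloid marker, also rose in MM1S, to 56 counts in knockout against 6 in empty vector, and myeloid markers summed to 4.01 and 6.38 CPM against 0.940 and 1.39 CPM, with 2 of the 5 markers at 0 in each of these 4 libraries. Their part in the result was not tested.

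In OPM2, loss of IKZF1 raised PARP9, DTX3L and PARP14 and no other of the 10 genes, against 16.2% of all genes called higher. PARP9 stood at 6.84 and 9.83 CPM in IKZF1 knockout, against 1.18 and 1.14 CPM in empty vector, or 2.85 ± 0.42 as log2 fold change (adjusted p = 0.000462 in edgeR). DTX3L stood at 12.1 and 12.4 CPM against 4.70 and 4.52 CPM (1.41; adjusted p = 0.00179 in edgeR). PARP14 stood at 6.12 and 8.12 CPM against 0.441 and 0.776 CPM, a change of 3.46 ± 0.45 (adjusted p = 0.000203 in edgeR). In this comparison, PARP14 passed the filter on low counts through the knockout libraries and not through the empty vector libraries. Each knockout library lay above each control library for the 3 genes, and all 3 were called without empty vector replicate 1 (adjusted p = 0.0121, 0.0233 and 0.0164 in edgeR). DTX3L was not called when only the compared libraries were fitted (adjusted p = 0.0668 in edgeR). With untreated OPM2 cells as the control, the PARP14 change was 2.11 and that of PARP9 was 3.56.

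Loss of IKZF3 in OPM2, tested against the same empty vector libraries, also raised PARP9, DTX3L and PARP14, with 16.2% of all genes called higher. PARP9 stood at 11.8 and 18.3 CPM in IKZF3 knockout, against the empty vector levels above, or 3.71 ± 0.40 as log2 fold change (adjusted p = 5.1e-05 in edgeR). DTX3L stood at 14.4 and 16.1 CPM (1.73; adjusted p = 0.0005 in edgeR, and 0.0552 with only the compared libraries fitted). PARP14 stood at 2.90 and 5.17 CPM (2.68 ± 0.47; adjusted p = 0.00117 in edgeR). Here too it passed the filter on low counts through the knockout libraries and not through the empty vector libraries. PARP14 was no longer called with only the compared libraries fitted (adjusted p = 0.0891 in edgeR) or without empty vector replicate 1 (2.46, adjusted p = 0.0597 in edgeR), and against untreated cells its change was 1.33 (adjusted p = 0.0539 in edgeR), while that of PARP9 was 4.42. The modifier, its protease and its E2 enzyme were not called in either OPM2 knockout in the fit of all libraries. ISG15 stood at 2.15 and 1.00 CPM in IKZF1 knockout and 1.26 and 3.30 CPM in IKZF3 knockout, against 1.91 and 1.00 CPM in empty vector (0.17 and 0.80 as log2 fold change; adjusted p = 0.881 and 0.293 in edgeR), and the groups overlapped. UBE2L6 stood at 1.43 and 2.71 CPM in IKZF1 knockout and 0.315 and 1.06 CPM in IKZF3 knockout, against 2.28 and 1.14 CPM in empty vector (0.37 and -1.10; adjusted p = 0.551 and 0.112 in edgeR). After IKZF3 loss, UBE2L6 was called lower without the filter on low counts (adjusted p = 0.00573 in edgeR), with DESeq2 (0.0287) and without knockout library b (0.0402 in edgeR), and ISG15 was called higher without the filter (0.00974 in edgeR). USP18 was at or below 0.407 CPM in all 6 of these libraries.

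Between the IKZF1 and IKZF3 knockouts themselves, 0 of the 10 genes were called by edgeR, although 3 had an unadjusted p below 0.05, DESeq2 called 1 (UBE2L6) and 2.59% of all genes were called in either direction. The interval of that difference was -1.54 to -0.19 for PARP9 and 0.08 to 1.49 for PARP14 on the log2 scale.

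Lenalidomide raised USP18, PARP9, DTX3L and PARP14 in OPM2 over untreated cells, 4 of the 10 genes, against 5.76% of all genes called higher. PARP14 stood at 11.1 and 11.3 CPM under lenalidomide, against 1.33 and 2.08 CPM in untreated cells, or 2.76 ± 0.37 as log2 fold change (adjusted p = 0.000235 in edgeR). PARP9 stood at 5.68 and 4.78 CPM against 0.644 and 0.787 CPM (2.89 ± 0.48; adjusted p = 0.00115 in edgeR), and DTX3L at 11.8 and 10.4 CPM against 3.999 and 4.44 CPM (1.40; adjusted p = 0.00372 in edgeR). In each case both treated libraries lay above both untreated ones. Within OPM2, USP18 passed the filter on low counts through the lenalidomide libraries only. In this comparison, PARP9 passed it through the lenalidomide libraries and not through the untreated ones. USP18 rested on 27 counts under lenalidomide against 4 in untreated cells (3.03 ± 0.85; adjusted p = 0.0331 in edgeR), and the call was lost without any 1 of the 4 libraries (adjusted p = 0.0647 to 0.318 in edgeR) and with limma-voom (0.0803). Without untreated replicate 1, DTX3L was also uncalled (adjusted p = 0.0601 in edgeR), which left PARP9 and PARP14. ISG15 stood at 4.11 and 3.49 CPM under lenalidomide, against 1.10 and 2.43 CPM in untreated cells, a change of 1.19 (95% interval 0.03 to 2.36; adjusted p = 0.212 in edgeR). ISG15 was called without the filter on low counts or with only the compared libraries fitted (adjusted p = 5.61e-05 and 0.000561 in edgeR), as was UBE2L6 (0.0402 and 0.0113 in edgeR), for which the change was 0.85 (adjusted p = 0.297 in edgeR).

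The effect of lenalidomide minus that of each knockout differed for 0 of the 10 genes by edgeR. At an unadjusted p below 0.05 there were 0 genes for the IKZF1 knockout and 1 for the IKZF3 knockout. DESeq2 called 0 and 1 (UBE2L6), and limma-voom 0 and 0. The interval for PARP9 was -1.26 to 1.35 against the IKZF1 knockout and -2.29 to 0.66 against the IKZF3 knockout, the first spanning differences of over 2-fold in both directions. Of all genes, 0.281% and 6.6% were called in these contrasts. Between empty vector and untreated OPM2 cells 0 of the 10 genes were called by edgeR, with 35.3% of all genes called, 1 of the 10 at an unadjusted p below 0.05 and 1 called by DESeq2. That gene was PARP14, at 0.441 and 0.776 CPM in empty vector, against 1.33 and 2.08 CPM in untreated cells (-1.35; adjusted p = 0.0689 in edgeR).

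**Figure D2:**
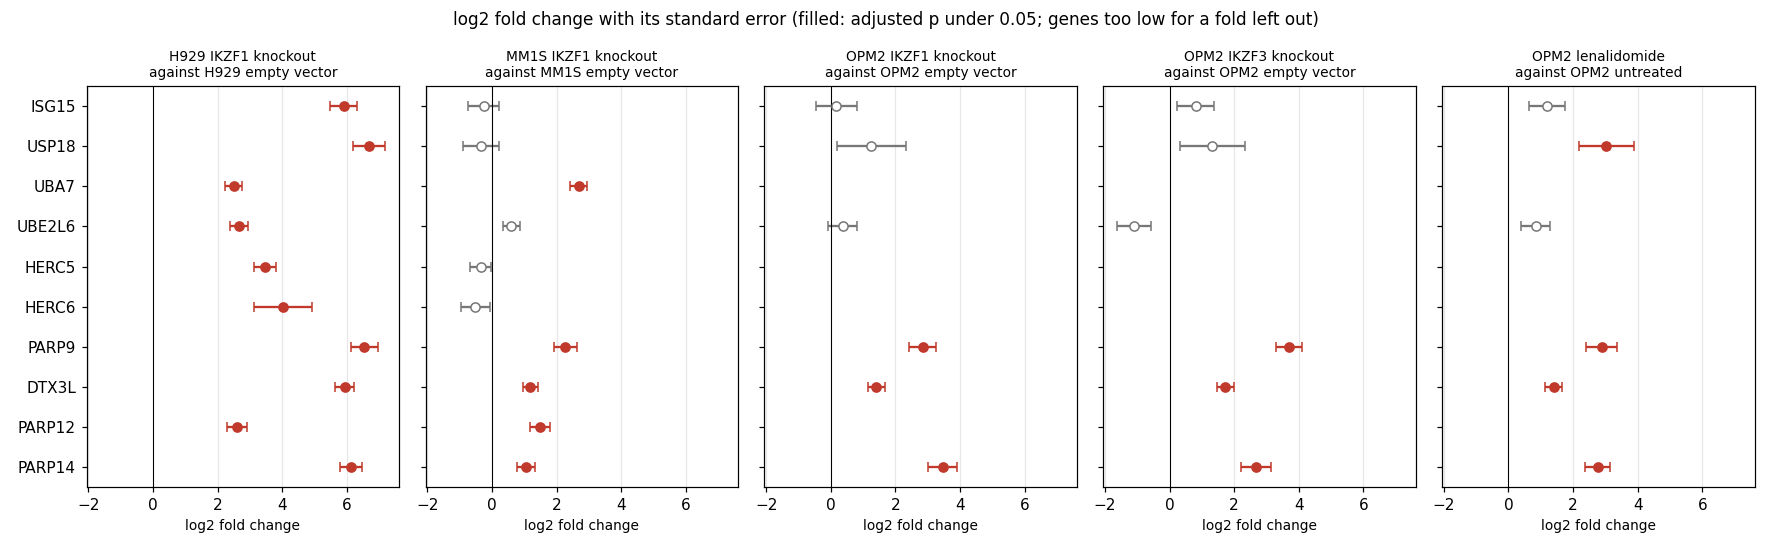
The log2 fold change of each gene with its standard error in the 5 comparisons, filled where the adjusted p is below 0.05; genes at or near 0 counts in both or either group are left out. PARP9, DTX3L and PARP14 are filled in 5 of 5 panels, and all 10 genes in the H929 panel alone.

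PARP9, DTX3L and PARP14 were called higher in 5 of 5 comparisons, USP18, UBA7 and PARP12 in 2, and ISG15, UBE2L6, HERC5 and HERC6 in 1. The 2 OPM2 knockout comparisons share their empty vector libraries, so these are not 5 independent counts. The share of all genes called higher in all 5 comparisons was not counted, so these values do not show how unusual such genes are.

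UBA7, HERC5, HERC6 and PARP12 were near absent from OPM2. Over the 5 OPM2 groups, HERC5 had 0, 1, 1, 5 and 0 counts in the IKZF3 knockout, IKZF1 knockout, lenalidomide, untreated and empty vector pairs. HERC6 had 5, 2, 3, 1 and 0 counts in the same order, PARP12 1, 1, 0, 1 and 1, and UBA7 3, 5, 6, 3 and 2. No fold is given for these genes in OPM2, since both or either group lay at or under 3 counts in every OPM2 comparison, the limit set for a group without counts (0.0742 to 0.109 CPM in OPM2 groups). They passed the filter on low counts only through H929 and MM1S libraries, and all 10 genes passed it. UBE2L6 was low but present in OPM2, at 0.315 to 2.84 CPM, and ISG15 stood at 1.00 to 4.11 CPM.

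Among cells with an empty vector, MM1S held more ISG15, UBE2L6, PARP9, DTX3L and PARP14 than OPM2, with 32.8% of all genes called higher. Of these, ISG15 and PARP9 were not called without OPM2 empty vector replicate 1. H929 held more ISG15, UBE2L6 and PARP14 than OPM2 (32.4% of all genes higher), and less DTX3L (-1.42 ± 0.32; adjusted p = 0.00125 by edgeR; 32.2% of all genes lower). UBA7, HERC5 and PARP12 passed the filter on low counts only through H929 and MM1S libraries. They thus had to differ from OPM2 and are given as counts. HERC6 and USP18 passed it through MM1S but not H929 or OPM2 empty vector libraries, and are given as counts too. PARP14 passed it through H929 and MM1S but not OPM2 empty vector libraries, with 176 and 968 counts against 23. HERC5 had 1551 counts in H929 and 2462 in MM1S, against 0 in OPM2. UBA7 had 156 and 208 counts in those lines, against 2 in OPM2, and PARP12 had 184 and 171, against 1. HERC6 had 6 and 551 counts, against 0 in OPM2, and USP18 had 12 and 39, against 4. Between H929 and MM1S, ISG15 was higher in H929 (2.92 ± 0.41; adjusted p = 2.01e-05 in edgeR). DTX3L was lower in H929 (-3.58 ± 0.29; adjusted p = 7.99e-08 in edgeR), as was HERC6, with 6 counts in H929 and 551 in MM1S (-6.67 ± 0.75; adjusted p = 3.33e-06 in edgeR), and also USP18, HERC5, PARP9 and PARP14. In all, 1 gene was higher and 6 lower in H929, against 32.9% and 30.3% of all genes. HERC6 and USP18 are among the 6, although they passed the filter in MM1S and not in H929 empty vector cells.

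The knockout of IKZF1 had a larger effect in H929 than in MM1S for 8 of the 10 genes, by the test of the difference itself, with 6.94% of all genes called in that direction. The difference in log2 fold change was 7.02 ± 0.77 for USP18 (adjusted p = 2.7e-05 in edgeR), 6.15 ± 0.61 for ISG15 (1.04e-05 in edgeR) and 5.08 ± 0.41 for PARP14 (2.11e-06 in edgeR). It was 4.74 for DTX3L, 4.54 for HERC6, 4.27 for PARP9, 3.81 for HERC5 and 2.05 for UBE2L6. The HERC6 difference was not called without H929 knockout library a (2.87, adjusted p = 0.115 in edgeR), without H929 empty vector replicate 2 (0.0548 in edgeR) or with only the compared libraries fitted (0.0921 in edgeR). The 2 genes without a called difference were UBA7 (-0.19, 95% interval -0.99 to 0.60) and PARP12 (1.13, 95% interval 0.20 to 2.07; adjusted p = 0.0978 in edgeR). UBA7 was thus the gene for which the 2 lines lay closest, with log2 fold changes of 2.49 in H929 and 2.69 in MM1S.

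Against OPM2, the H929 effect was larger for ISG15, USP18, UBE2L6, PARP9, DTX3L and PARP14, with 6.51% of all genes called in that direction. The difference was 4.52 ± 0.40 for DTX3L (adjusted p = 1.52e-05 in edgeR), 3.69 ± 0.63 for PARP9 (0.00288 in edgeR) and 5.73 ± 0.78 for ISG15 (0.000561 in edgeR). Without OPM2 empty vector replicate 1 only PARP9 and DTX3L were called, and without H929 empty vector replicate 1 only those and ISG15. PARP14 was the 1 gene whose effect differed between MM1S and OPM2, smaller in MM1S by a difference of -2.41 ± 0.55 (adjusted p = 0.00803 by edgeR; 8.94% of all genes lower), and it was not called without OPM2 empty vector replicate 1 or 2 (0.125 and 0.0686 in edgeR). Averaged over the 3 lines, the effect was called for 7 of the 10 genes, with 15.5% of all genes called higher: 3.89 ± 0.23 for PARP9, 3.55 ± 0.20 for PARP14 and 2.84 ± 0.15 for DTX3L (adjusted p = 3.3e-08, 2.51e-08 and 1.76e-08 in edgeR). UBA7 is among the 7 although it lay near 0 counts in OPM2. ISG15, USP18 and UBE2L6 are also among the 7, although within single lines each was called in H929 only. In H929, MM1S and OPM2 the changes were 5.90, -0.25 and 0.17 for ISG15 and 6.69, -0.33 and 1.255 for USP18. Those for UBE2L6 were 2.66, 0.60 and 0.37.

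**Figure D3:**
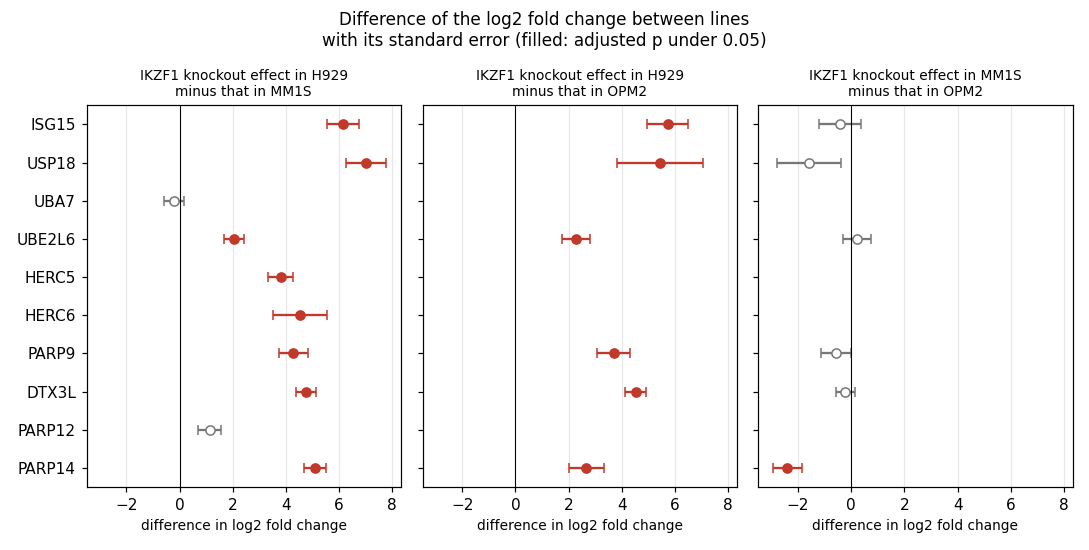
Difference between lines in the log2 fold change after IKZF1 knockout, with its standard error, filled where the adjusted p is below 0.05. Genes at or under 3 counts in a group of the contrast are left out. In the panel of H929 minus MM1S, 8 genes lie to the right of 0 and are filled, while UBA7 lies at -0.19.

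PARP9, DTX3L and PARP14 lie within 1 stretch of chromosome 3. Over all genes tested, 5.92% were called higher in H929, 15.6% in MM1S, 16.2% in each OPM2 knockout and 5.76% under lenalidomide. Called lower were 670 of the 14571 genes in H929, 1841 in MM1S, 2918 and 3006 after IKZF1 and IKZF3 loss in OPM2, and 668 under lenalidomide. The counts of neighbours below stand beside these shares. Of the 6 other tested genes within 300 kb of PARP14, 1 was called higher and 0 lower in H929 (SLC49A4, 1.01 ± 0.24). In MM1S 1 was higher (WDR5B, 1.36 ± 0.25). In OPM2, 0 were higher and 2 lower after IKZF1 loss (MIX23 and FAM162A), 1 higher and 2 lower after IKZF3 loss, and 0 higher and 1 lower under lenalidomide (FAM162A, -1.02 ± 0.17). HSPBAP1, which lies next to PARP14, was called in none of the 5. The neighbourhood was chosen after its values were seen. Around ISG15, HES4 (3.42 ± 0.31) and AGRN (2.06 ± 0.19), the genes on its 2 sides, were higher in H929 knockout, 2 of 14 neighbours. AGRN was also higher in the 3 OPM2 comparisons (1.67 and 1.42 after IKZF1 and IKZF3 loss, 1.00 under lenalidomide). Around UBA7, 0 of 14 neighbours were called in H929 and 5 higher and 2 lower in MM1S. INKA1, the nearest of them by lower coordinate and named after its values were seen, was higher in MM1S knockout (3.59 ± 0.47), after IKZF1 loss in OPM2 (2.19 ± 0.45) and under lenalidomide (2.70 ± 0.47).

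**Figure D4:**
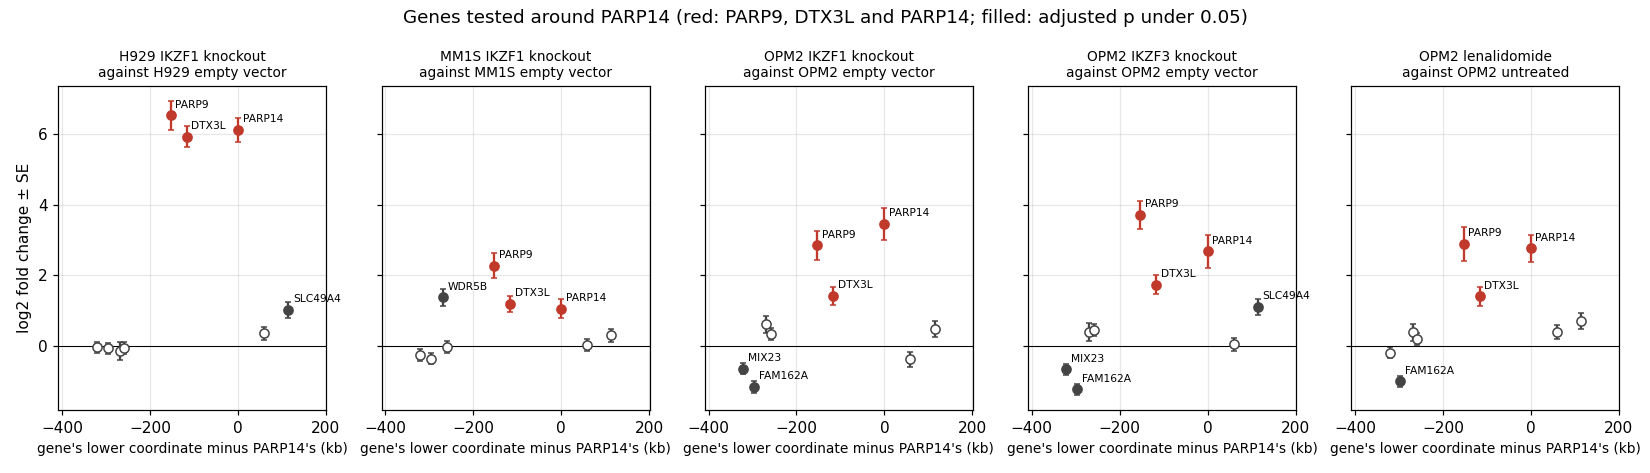
The log2 fold change with its standard error of each tested gene within 300 kb of PARP14, against the distance in kb of its lower coordinate from that of PARP14, in the 5 comparisons. PARP9, DTX3L and PARP14 (red) lie above 0 in each panel, and the filled dark points are the other genes with an adjusted p below 0.05.

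Most other members of the same families were not called in H929. Of 13 other PARP family genes tested, 2 rose and 0 fell there, with 5.92% of all genes called higher. The 2 were PARP10 (1.77 ± 0.27; adjusted p = 0.000494 in edgeR) and PARP8 (1.44 ± 0.18; adjusted p = 8.32e-05 in edgeR). The median of the 13 was 0.34, against -0.03 over all genes. The median log2 fold change in H929 was -0.06 over 8 other E1 enzymes, 0.28 over 4 other HERC ligases, -0.11 over 3 other Deltex ligases and -0.12 over 11 ubiquitin and SUMO genes. Of 6 genes that remove or read ADP-ribose, 1 rose in H929 (ADPRHL2, 0.93). In MM1S 3 of the other PARP genes rose, with 15.6% of all genes called higher and 1841 of 14571 called lower. PARP6 fell there, to 15.3 CPM in knockout against 41.5 CPM in empty vector (-1.45 ± 0.17; adjusted p = 1.81e-05 in edgeR). In OPM2, 5 rose and 1 fell after IKZF1 loss and 7 rose and 1 fell after IKZF3 loss, among them PARP8 (0.72 and 0.94). In each of these knockouts 16.2% of all genes were called higher. Called lower were 2918 and 3006 of the 14571 genes after IKZF1 and IKZF3 loss. Under lenalidomide the median of the 13 was 0.09. Ubiquitin and SUMO genes fell for 7 of 11 in each OPM2 knockout, against the empty vector pair whose 2 libraries were unlike each other.

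Partners of ISG15 and of the interferon pathway varied by line. STAT2, which USP18 uses to reach the receptor, rose in all 4 knockout comparisons, by 2.14 ± 0.17 in H929, 1.11 ± 0.17 in MM1S, and 0.67 ± 0.17 and 0.71 ± 0.17 after IKZF1 and IKZF3 loss in OPM2 (adjusted p = 1.08e-06, 0.000185, 0.00724 and 0.00523 in edgeR). IRF7 rose in H929, to 383 CPM in knockout against 36.7 CPM in empty vector (3.38 ± 0.19; adjusted p = 4.34e-08 in edgeR), as did IRF9 (2.27 ± 0.16; adjusted p = 4.11e-07 in edgeR). Of the 10 genes of the interferon signalling core, 6 rose in H929, 5 in MM1S, 3 and 6 after IKZF1 and IKZF3 loss in OPM2, and 2 under lenalidomide, with none lower in any of these. The shares of all genes called higher were 5.92%, 15.6%, 16.2%, 16.2% and 5.76% in the same order. TRIM25, a ubiquitin ligase that is itself modified by ISG15, rose in H929 (0.71 ± 0.15) and fell under lenalidomide (-0.68 ± 0.15; adjusted p = 0.00531 and 0.00818 in edgeR) and after IKZF3 loss in OPM2 (-0.43 ± 0.15; adjusted p = 0.0323 in edgeR). Of 30 other interferon-stimulated genes, 29 were higher in H929 knockout, 13 in MM1S knockout with 1 lower, 15 with 1 lower in each OPM2 knockout, and 14 under lenalidomide. The same shares of all genes as for the core stand beside these counts, and the numbers called lower are those given with the neighbours above. The medians of the list of 30 were 4.50, 0.91, 1.44, 2.20 and 1.59 in these comparisons. The lists were chosen with earlier results known, so these counts describe and do not test.

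The authors' deposited log2 FPKM table, which corrects for gene length, allowed levels of different genes to be set side by side. In the 2 H929 knockout columns ISG15 stood at 11.69 and 10.72 log2 FPKM, UBE2L6 at 7.99 and 7.24, and HERC5 at 7.37 and 6.10. PARP14 stood at 5.73 and 4.76, DTX3L at 4.61 and 3.59, USP18 at 4.46 and 3.25, and PARP9 at 3.85 and 2.75 log2 FPKM. The merged H929 empty vector column held 5.57 for ISG15, 5.02 for UBE2L6, 3.45 for HERC5, -1.04 for PARP14 and -3.56 for PARP9. ISG15 was the most abundant of the 10 per length in both knockout columns, as it was in the merged control. In MM1S the order differed: UBE2L6 stood highest, at 5.82 and 5.73 log2 FPKM in knockout against 5.18 in the merged empty vector column, and ISG15 at 2.15 and 2.22 against 2.57.

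The genes whose pattern over the 18 libraries was most like the mean of the 10 were TNFSF10 (Pearson r = 0.98), IFI44 (0.98), DDX58 (0.97), IFIH1 (0.97) and RUFY4 (0.97). These libraries share lines and treatments, and the values are descriptions. Of the 10 genes themselves, PARP14 lay closest to that mean (r = 0.96) and PARP9 farthest (0.72).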

How the data were processed

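Bulk RNA was sequenced from 18 libraries in 9 groups. The authors deposited raw counts per gene. The submitters' processing notes name Subread, featureCounts, limma and the builds GRCh38 and hg38, without versions. The authors also deposited a log2 FPKM table of 16352 genes and 14 columns, in which the control replicates were merged to 1 column per group; it was used only to compare genes per length.

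Counts were analysed with edgeR 4.0.16 in R 4.3.3. Rows without a symbol (385, 0.0122 to 0.0276% of counts) were kept in the fit. They were left out only of the search for genes most like the mean of the 10. Filtering on a minimum count of 10 (CPM over 0.654) left 14571 of 28395 genes. After TMM scaling, 1 quasi-likelihood model with 9 group coefficients and 9 residual degrees of freedom was fitted to all libraries, so groups share 1 estimate of spread; p-values were adjusted by Benjamini-Hochberg over all genes tested. Standard errors are derived from the F statistic. Where both groups held at most 3 counts, no fold is given. Intervals are 95%, and, with no molecular identifiers, floors cover counting error only. An exact permutation test of 2 against 2 libraries cannot go below p = 0.333 and was not run. DESeq2 1.42.0, limma-voom (limma 3.58.1), other scalings and filters, fits of the compared libraries alone, another control and leaving out libraries were the alternatives. The model was tested on simulated data.

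Knockout columns were matched to groups, not to numbered samples. All 10 genes are described in every comparison, IKZF1 and IKZF3 serve as a check, and from each other list up to 3 genes with the smallest p were eligible to be named. The genes, lists and neighbourhoods were chosen with earlier results of these data known. Other values named outside that rule (marker genes, neighbours, IFNB1 and USP41) were chosen after they were seen. Promoter sequences are from RefSeq, GRCh38.p14.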

Additional observations from a re-analysis of the deposited data

Results flagged for a closer look

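The effect of IKZF1 loss differed between lines by the test of the difference itself. H929 exceeded MM1S, in log2 fold change, by 6.147 for ISG15, 7.016 for USP18, 2.054 for UBE2L6, 3.808 for HERC5, 4.537 for HERC6, 4.271 for PARP9, 4.743 for DTX3L and 5.077 for PARP14. H929 exceeded OPM2 by 5.725 for ISG15, 5.434 for USP18, 2.286 for UBE2L6, 3.694 for PARP9, 4.517 for DTX3L and 2.669 for PARP14. The PARP14 effect in MM1S minus that in OPM2 was -2.408. The 2 libraries per group, and the OPM2 empty vector pair in particular, limit these differences.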

How the results depend on the processing

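PARP9 was called in all 12 alternatives of each of the 5 comparisons. Without the filter on low counts, 6 of the 10 genes were called after IKZF3 loss (5 higher, 1 lower), 2 between empty vector and untreated cells, 3 between the OPM2 knockouts, and 1 for lenalidomide minus IKZF3 loss. DESeq2 called 1 gene in each of the last 3 contrasts. With only the compared libraries fitted, 1 gene was called after IKZF3 loss and 3 for H929 minus OPM2. For the control libraries alone without a replicate number, added after seeing the data, 1 gene (PARP14) was called between empty vector and untreated cells. The cause was not tested.

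Leaving out 1 library gave 9 to 10 genes in H929, 4 to 5 in MM1S, 3 after IKZF1 loss and 2 to 4 after IKZF3 loss in OPM2, 2 to 4 under lenalidomide, 7 to 9 for H929 minus MM1S, 2 to 6 for H929 minus OPM2 and 0 to 1 for MM1S minus OPM2. Among uncalled genes the sign turned: in MM1S, USP18 ranged from -1.055 to 0.09325 and HERC6 from -1.417 to 0.009847; after IKZF3 loss ISG15 ranged from -0.1319 to 1.316; after IKZF1 loss in OPM2 ISG15 ranged from -0.4598 to 0.6529 and UBE2L6 from -0.1751 to 0.9044. With untreated cells as the control, ISG15 was -0.101 after IKZF1 loss in OPM2.

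With a replicate block over the control libraries, 0 genes were called between empty vector and untreated OPM2 cells, 7 for H929 against OPM2, 10 for MM1S against OPM2 and 7 for H929 against MM1S empty vector, against 1, 8, 10 and 7 in the same libraries without a replicate number. Deviations of same-numbered control libraries correlated at -0.0762 to 0.123 between groups. Most of these group pairs join different lines, so the values cannot show if libraries of the same number were handled together. No paired analysis of the knockouts or lenalidomide was run, because their count columns carry no matching replicate numbers. The log2 FPKM columns do number the knockouts, but the count libraries were not matched to them.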
